A study of Mus musculus with 9 samples.

Results

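The collagen genes measured here are the transcript clusters, the probe groups that Affymetrix Mouse Gene 2.0 ST arrays read as 1 gene, whose single annotated symbol is Col, a number, a and a number. This rule gave 44 genes on 47 clusters, of 22180 genes with a single-symbol cluster. Col1a2, Col5a1 and Col6a1 had a further cluster each, and the cluster with the highest mean over the 9 arrays was read.

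The study compared primary osteoblasts from the skull vault (calvaria) of C57BL/6J mice aged 7 to 10 days, 3 arrays per group, after 4 h with vehicle, 100 nM hPTH(1-34) or 1 µM bPTH(7-34). All groups were passage 2 cells, with no genotype beyond the strain labelled, in which mineralising medium with β-glycerophosphate and ascorbic acid was given from day 3, and all lost serum for 24 h on day 10 and were treated in medium with albumin and no serum. hPTH(1-34) is the active amino-terminal fragment of human parathyroid hormone, and bPTH(7-34) is an amidated bovine fragment with D-Trp at residue 12 that lacks the first residues and is used as a receptor antagonist. The labels state an independent cell preparation for each replicate but not whether treatments shared one, nor how many mice were pooled, so the p-values measure the spread between these samples. Values are log2 levels, on which a difference of 1 is 2-fold, and levels of different genes are not compared because each gene has its own probes.

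Collagens are triple helices of 3 chains, each chain the product of 1 gene. Fibrillar collagens form the ropes of bone, skin and cartilage, fibril-associated collagens coat them, and other classes build basement membrane networks, beaded filaments around cells and membrane-anchored proteins. Osteoblasts secrete mainly type I collagen, into which bone mineral is laid, and parathyroid hormone acts on them through a receptor that raises cyclic AMP.

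No collagen gene passed the test in any comparison. Against vehicle, 0 of 44 genes had a limma adjusted p under 0.05 with hPTH(1-34), where 0.451% of the 23521 clusters tested did (106), and 0 of 44 with bPTH(7-34), where 0% did. Between both peptides, whose doses differed, 0 of 44 passed and 0.463% of all clusters did. A count of 0 is near these shares, so it sets the family apart from nothing. At an unadjusted p under 0.05 the counts were 1, 0 and 1 of 44 in that order, against 9.31%, 3.32% and 9.52% of all clusters. None of the 44 genes had separate, non-overlapping groups in any comparison, which 10.7%, 5.29% and 11.1% of all clusters had. The sample titles number the arrays of each group 1 to 3. In 17 of the 44 genes all arrays numbered 1 lay below the other 6, and in 1 gene above. Either order makes the groups overlap, so the 0 of 44 is not comparable with these shares. Of all 23521 clusters, 475 and 763 had these orders.

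The sizes of the differences were small for most members. With hPTH(1-34) the 44 differences from vehicle ran from -0.41 (Col9a3) to 0.38 (Col15a1), with a median of 0.04, and their median size was 0.07 against 0.11 over all clusters. With bPTH(7-34) they ran from -0.29 (Col6a4) to 0.35 (Col8a2), with a median of 0.04 (the median over all clusters was 0.00 in both comparisons). These comparisons share their vehicle arrays. The 95% interval lay within a 1.5-fold change either way for 29 of 44 genes with hPTH(1-34) and 31 of 44 with bPTH(7-34). It lay within 2-fold for 38 and 39 in this fit, which has no term for the array number.

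**Figure D1:**
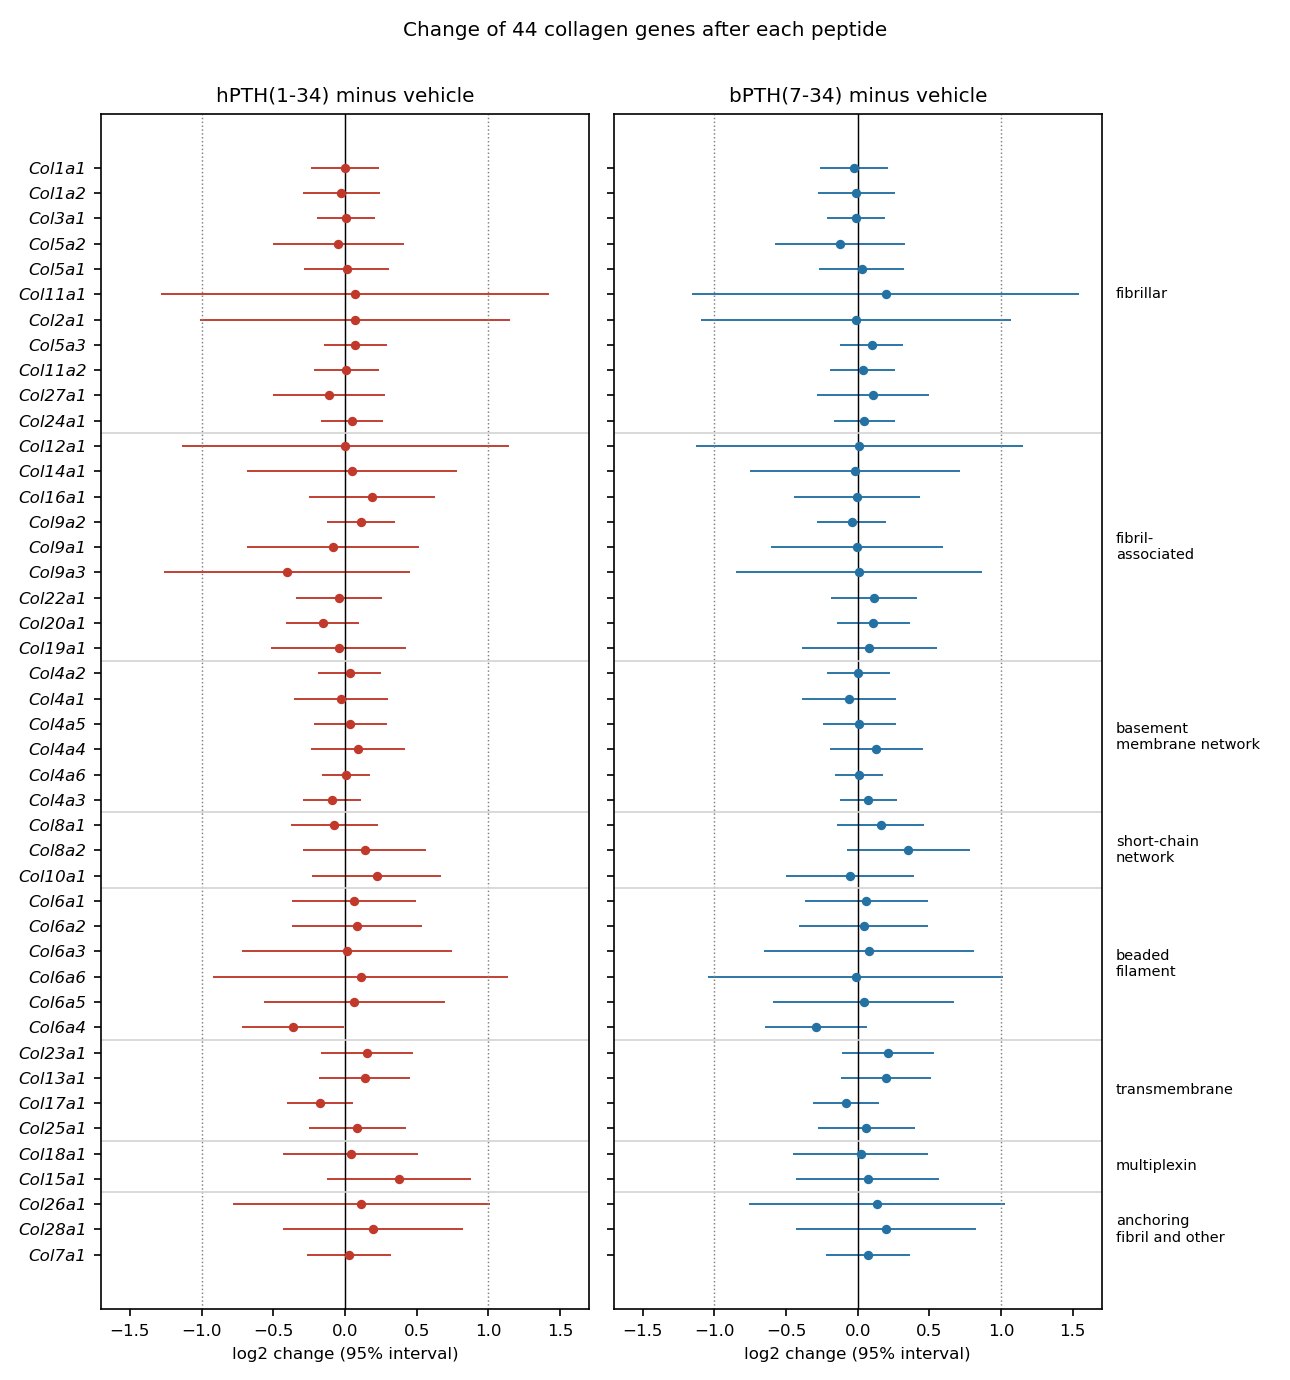
Difference from vehicle of each of the 44 collagen genes after hPTH(1-34) (left) and bPTH(7-34) (right), on the log2 scale. Points are the means of 3 arrays minus 3 arrays, bars the 95% intervals of the limma fit, and dotted lines 2-fold. All points lie between -0.41 and 0.38, and bars are widest for Col11a1, Col12a1 and Col2a1.

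Promoter letters are shown for Col1a2, the type I chain for which a sequence was at hand, for Col3a1, which varied little between arrays, and for Col11a1, which varied most. Of the 44 genes, 35 had an entry in the RefSeq promoter table (GRCm38.p6), with 38 windows in all. The stretches of 250, 250 and 189 bases end just before the first annotated base of the gene and run 5′ to 3′ along the gene, and the capitals mark GC boxes, CCAAT boxes and TATA boxes found on either strand.
Col1a2, chr6:4505368-4505617, plus strand: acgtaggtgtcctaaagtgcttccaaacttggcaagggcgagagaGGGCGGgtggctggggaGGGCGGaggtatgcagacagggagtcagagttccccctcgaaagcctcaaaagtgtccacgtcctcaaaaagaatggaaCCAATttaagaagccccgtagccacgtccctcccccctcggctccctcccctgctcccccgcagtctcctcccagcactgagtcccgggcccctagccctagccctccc
Col3a1, chr1:45311288-45311537, plus strand: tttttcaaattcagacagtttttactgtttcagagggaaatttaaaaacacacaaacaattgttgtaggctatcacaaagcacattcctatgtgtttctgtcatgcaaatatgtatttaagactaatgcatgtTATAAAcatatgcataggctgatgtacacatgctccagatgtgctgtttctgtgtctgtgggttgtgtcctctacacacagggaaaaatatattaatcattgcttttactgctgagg
Col11a1, chr3:114030290-114030478, plus strand: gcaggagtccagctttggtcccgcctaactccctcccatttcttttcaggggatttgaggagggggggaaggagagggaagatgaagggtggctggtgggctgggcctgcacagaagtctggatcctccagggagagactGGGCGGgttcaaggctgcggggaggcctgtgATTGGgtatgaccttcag
The Col1a2 stretch held 2 GC boxes and 1 CCAAT box, that of Col3a1 held 1 TATAAA, and that of Col11a1 held 1 GC box and, on the other strand, 1 CCAAT box. The cyclic AMP response element TGACGTCA, the site of the CREB factors, was in 0 of 38 collagen windows of 250 bases and in 1.55% of all 32851 windows. Its core TGACG, which the full element contains, was in 4 of 38 (Col4a5, Col7a1, Col11a2 and Col24a1), or 10.5%, and in 17.8% of all. CCAAT was in 34.2% of the collagen windows against 33.8% of all, the TATA box letters TATAAA in 13.2% against 12.4%, and the GC box letters GGGCGG in 57.9% against 32.7%. These matches are of letters only.

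Among the 11 fibrillar genes, the type I chains had group means within 0.03 of each other. Col1a1, the more abundant chain of the type I helix, read 12.18, 12.39 and 12.31 with vehicle, 12.14, 12.42 and 12.32 with hPTH(1-34), and 12.18, 12.26 and 12.36 with bPTH(7-34). The groups overlapped fully, and the lowest array of each was the one numbered 1. The difference with hPTH(1-34) was 0.00 ± 0.11 (SE, n = 3; 95% interval -0.24 to 0.24), which bounds it to between 0.848-fold and 1.18-fold. With bPTH(7-34) it was -0.03 (-0.26 to 0.21).

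Col1a2, the partner chain of type I, read 11.52, 11.84 and 11.70 with vehicle, 11.49, 11.78 and 11.71 with hPTH(1-34), and 11.56, 11.69 and 11.78 with bPTH(7-34). Its differences were -0.03 (-0.30 to 0.24) and -0.01 (-0.28 to 0.26). Its dimmer cluster gave -0.13 ± 0.20 (SE) with hPTH(1-34). For Col1a1 and the brighter Col1a2 cluster these differences are smaller than the SD within each group.

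Col3a1, the single chain of type III collagen, which forms thin fibrils with type I, had the closest arrays of the fibrillar genes with a high signal. It read 11.26, 11.23 and 11.19 with vehicle, 11.28, 11.22 and 11.21 with hPTH(1-34), and 11.17, 11.12 and 11.36 with bPTH(7-34). The differences were 0.01 (-0.19 to 0.21) and -0.01 (-0.21 to 0.19).

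The type V chains, which start type I fibrils and limit their width, were likewise close. Col5a1 read 8.45, 8.65 and 8.55 with vehicle, 8.35, 8.66 and 8.68 with hPTH(1-34), and 8.36, 8.63 and 8.74 with bPTH(7-34), with differences of 0.01 (-0.28 to 0.31) and 0.03 (-0.27 to 0.32). Col5a2 read 8.74, 9.16 and 9.0, then 8.63, 9.16 and 8.97, then 8.44, 8.97 and 9.12 in the same order of groups, with differences of -0.05 (-0.50 to 0.41) and -0.12 (-0.58 to 0.33). The array numbered 1 was the lowest of its group for both genes in each of the 3 groups. Of the other fibrillar genes, the cartilage chains Col2a1 and Col11a1 are described with the array numbers below, and Col5a3, Col11a2, Col24a1 and Col27a1 had group means of 3.25 to 5.64 and differences from vehicle between -0.11 and 0.11. Col11a2 was listed at one value, 3.89, on 6 of the 9 arrays.

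**Figure D2:**
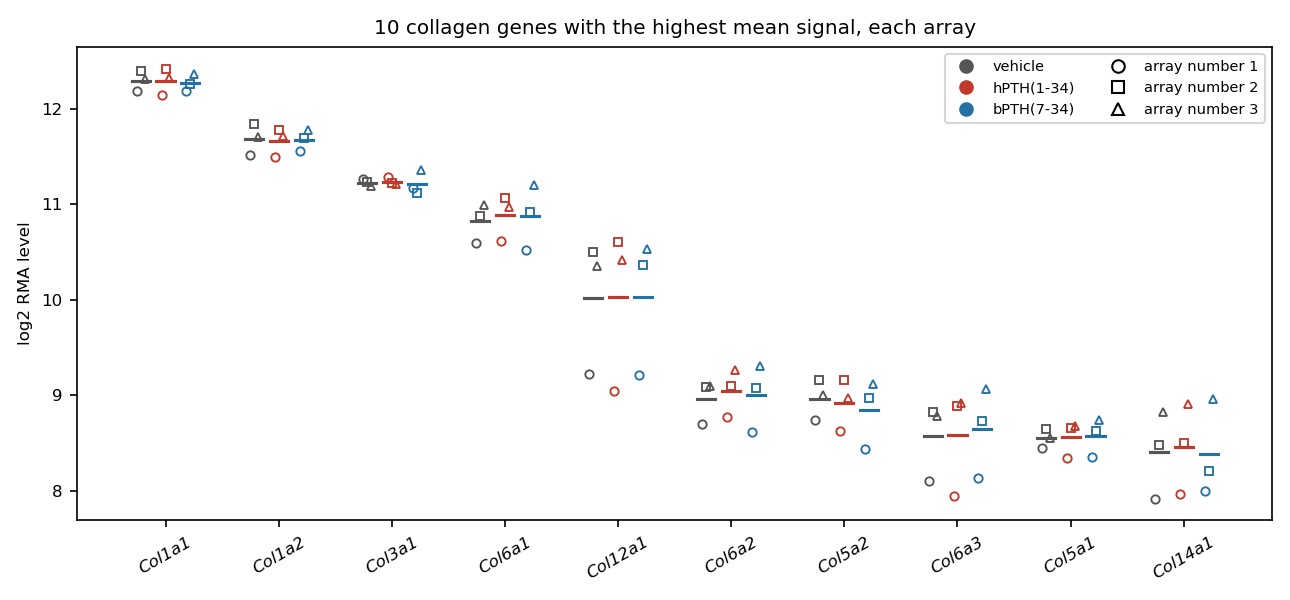
Log2 level on each of the 9 arrays for the 10 collagen genes with the highest mean signal, by group (colour) and replicate number (symbol), with a bar at each group mean. Group means of a gene nearly coincide, while circles, the arrays numbered 1, lie lowest for 9 of the 10 genes, the exception being Col3a1.

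Of the 9 fibril-associated genes, Col12a1 and Col14a1, whose products lie on type I fibrils in tendon, periosteum and dense tissue, had the highest signals. Col12a1 read 9.22, 10.50 and 10.35 with vehicle, 9.05, 10.61 and 10.42 with hPTH(1-34), and 9.21, 10.36 and 10.53 with bPTH(7-34). The group means were 10.02, 10.03 and 10.03, but the low array in each group widened the interval to -1.14 to 1.14 around a difference of 0.00 with hPTH(1-34), so a 2-fold change in either direction lay inside the interval of this fit, which has no term for the array number. Col14a1 read 7.92, 8.48 and 8.83, then 7.97, 8.50 and 8.91, then 8.0, 8.21 and 8.96, with differences of 0.05 (-0.68 to 0.78) and -0.02 (-0.75 to 0.71).

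Col9a3, a chain of the type IX collagen that coats cartilage fibrils, had the lowest estimate with hPTH(1-34). It read 1.91, 3.14 and 3.39 with vehicle, 1.91, 2.66 and 2.65 with hPTH(1-34), and 2.45, 2.79 and 3.22 with bPTH(7-34). The groups overlapped, and the difference of -0.41 (-1.26 to 0.45) had a limma adjusted p of 0.794. Col20a1, of the same class, was the 1 gene with an unadjusted p under 0.05 between the peptides. It read 2.17, 1.96 and 2.13 with vehicle, 1.90, 1.76 and 2.13 with hPTH(1-34), and 2.13, 2.25 and 2.20 with bPTH(7-34). The value 2.13 occurred in all 3 groups. The difference between the peptides, -0.26, had an unadjusted limma p of 0.0441 and an adjusted p of 0.506. The other 5 genes, Col9a1, Col9a2, Col16a1, Col19a1 and Col22a1, differed from vehicle by -0.08 to 0.19.

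The 6 genes of type VI collagen, which makes beaded filaments near the cell surface, held the other low unadjusted p. Col6a1, Col6a2 and Col6a3, the classical chains, had differences with hPTH(1-34) of 0.06 (-0.37 to 0.49), 0.08 (-0.37 to 0.54) and 0.02 (-0.72 to 0.75). Col6a1 read 10.59, 10.88 and 10.99 with vehicle, 10.62, 11.06 and 10.97 with hPTH(1-34), and 10.52, 10.92 and 11.20 with bPTH(7-34). Col6a2, its neighbour on the chromosome, read 8.70, 9.09 and 9.10, then 8.77, 9.10 and 9.27, then 8.62, 9.08 and 9.31. Both neighbours were lowest on the arrays numbered 1. Col6a3 showed this more widely, with 8.10, 8.83 and 8.78, then 7.95, 8.89 and 8.92, then 8.14, 8.73 and 9.07.

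Col6a4, one of the alternative type VI chains, read 1.42, 2.08 and 1.61 with vehicle, 1.20, 1.41 and 1.42 with hPTH(1-34), and 1.47, 1.42 and 1.35 with bPTH(7-34). All but 1 of these 9 values lie under 1.69, the level below which 95% of 1105 olfactory receptor genes lay in the vehicle group, taken here as the limit of background. The difference of -0.36 with hPTH(1-34) had a limma p of 0.0477 and an adjusted p of 0.528, and it rests on arrays at background. Col6a5, the neighbour of Col6a4, and Col6a6 had differences of 0.06 and 0.11.

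Of the 9 network genes, Col4a1 and Col4a2, neighbours that encode the common chains of basement membranes, gave -0.03 (-0.35 to 0.30) and 0.03 (-0.19 to 0.25) with hPTH(1-34). Col4a5 gave 0.04, and Col4a3, Col4a4 and Col4a6 had means below that limit with each treatment. Of the short-chain genes, Col8a2, a chain of the type VIII networks of the cornea and vessel wall, had the highest estimate with bPTH(7-34). It read 4.19, 4.78 and 4.70 with vehicle, 4.65, 4.56 and 4.87 with hPTH(1-34), and 4.71, 4.77 and 5.25 with bPTH(7-34), a difference of 0.35 (-0.08 to 0.78) with a limma adjusted p of 0.999. The 3 groups overlapped. Its partner Col8a1 gave -0.07 and 0.16, and Col10a1, the collagen of hypertrophic cartilage, gave 0.22 (-0.23 to 0.67) and -0.05.

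Col15a1, a collagen of the zone beneath basement membranes, had the highest estimate with hPTH(1-34). It read 5.23, 4.53 and 4.97 with vehicle, 5.34, 5.08 and 5.44 with hPTH(1-34), and 5.09, 4.56 and 5.29 with bPTH(7-34). The hPTH(1-34) arrays overlapped both other groups, and the difference of 0.38 (-0.12 to 0.88) had a limma adjusted p of 0.663. Col18a1, the related source of endostatin, gave 0.04 (-0.43 to 0.51). The transmembrane genes Col13a1, Col17a1, Col23a1 and Col25a1 gave 0.14, -0.18, 0.16 and 0.09. The remaining genes, Col7a1 of the anchoring fibrils of skin, Col26a1 and Col28a1, gave 0.03, 0.11 and 0.20.

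What did differ between arrays was the replicate number in their titles. When the number was added to the fit beside the group, a test chosen after the values were seen, 5 of 44 collagen genes (11.4%) passed at a limma adjusted p under 0.05, against 0.213% of all clusters, and 18 of 44 (40.9%) at an unadjusted p, against 10.1%. At that unadjusted p the lists of the collagen pathway read below had 2 of 19 folding, 3 of 11 cleavage and cross-linking and 5 of 10 fibril-binding genes. They also had 1 of 9 receptor and 6 of 10 breakdown genes. For 17 of 44 collagen genes (38.6%) all 3 arrays numbered 1 lay below all other 6 arrays, which held for 2.02% of all clusters. Among genes with a mean of at least 5 it held for 12 of 20 collagen genes and 4.20% of clusters. Of the dimmer clusters, that of Col6a1 had this order too, while those of Col1a2 and Col5a1 did not, unlike their brighter clusters. The 5 genes that passed, named for this test, were Col2a1, Col11a1, Col12a1, Col6a6 and Col26a1.

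Col11a1, a chain of type XI collagen, the core of cartilage fibrils, read 6.15, 7.50 and 7.86 with vehicle, 6.13, 7.67 and 7.92 with hPTH(1-34), and 6.49, 7.45 and 8.15 with bPTH(7-34). The arrays numbered 1 were the lowest and those numbered 3 the highest in each group. Number 2 was higher than number 1 by 1.28 ± 0.12 (SE) and number 3 by 1.72 ± 0.12, or 2.43-fold and 3.29-fold (adjusted p = 0.0072). The treatment differences within this gene were 0.07 and 0.19.

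Col2a1, the main collagen of cartilage, read 5.99, 7.09 and 7.15 with vehicle, 5.92, 7.27 and 7.25 with hPTH(1-34), and 5.90, 7.07 and 7.23 with bPTH(7-34). Numbers 2 and 3 were close to each other and above number 1 by 1.21 and 1.27 (adjusted p = 0.0056). Col12a1, whose arrays are given above, behaved alike, with 1.33 and 1.27 (adjusted p = 0.0095).

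Col6a6, an alternative type VI chain, read 2.61, 3.34 and 4.09 with vehicle, 2.76, 3.66 and 3.95 with hPTH(1-34), and 2.64, 3.35 and 4.01 with bPTH(7-34), with differences from number 1 of 0.78 and 1.35 (adjusted p = 0.011). Col26a1 read 3.76, 4.59 and 4.68, then 3.87, 4.66 and 4.84, then 3.64, 4.86 and 4.93, with 0.95 and 1.06 (adjusted p = 0.024). For both genes no array of another number reached down to those numbered 1. The Col26a1 call was lost on leaving out any 1 array. Col14a1 and Col6a3 lay just outside the threshold, at adjusted p = 0.052 and 0.055.

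At the adjusted threshold these calls depend on single arrays. Without vehicle array 1 or hPTH(1-34) array 1, 0 of the 5 passed. Without bPTH(7-34) array 1 or array 3, 1 passed. Without hPTH(1-34) array 3, 2 passed, and without vehicle array 3, 3 passed. Without array 2 of any 1 group, 4 passed. The lowest adjusted p of a collagen gene without vehicle array 1 was 0.067, with 17 genes at an unadjusted p under 0.05. Leaving out any 1 array kept 16 to 18 collagen genes at an unadjusted limma p under 0.05. Over the alternatives, number 3 lay above number 1 by 1.64 to 1.82 for Col11a1, 1.22 to 1.33 for Col2a1 and 1.19 to 1.33 for Col12a1. For Col6a6 it was 1.27 to 1.455 and for Col26a1 0.93 to 1.12.

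By class, the arrays numbered 1 lay below all others for 6 of 11 fibrillar, 6 of 9 fibril-associated and 4 of 6 type VI genes, for 1 of the 3 genes grouped as other, and for 0 of 6 basement membrane, 0 of 3 short-chain, 0 of 4 transmembrane and 0 of 2 multiplexin genes (Col15a1 and Col18a1). The difference between classes was not tested. Col28a1, a collagen found around peripheral nerve, was the 1 gene of 44 (2.27%) with the opposite order. It read 4.16, 3.86 and 3.40 with vehicle, 4.33, 3.84 and 3.84 with hPTH(1-34), and 4.59, 3.84 and 3.58 with bPTH(7-34), and did not pass (adjusted p = 0.147). Of the 23521 clusters tested, 763 had all arrays numbered 1 above the others and 475 had them below.

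**Figure D3:**
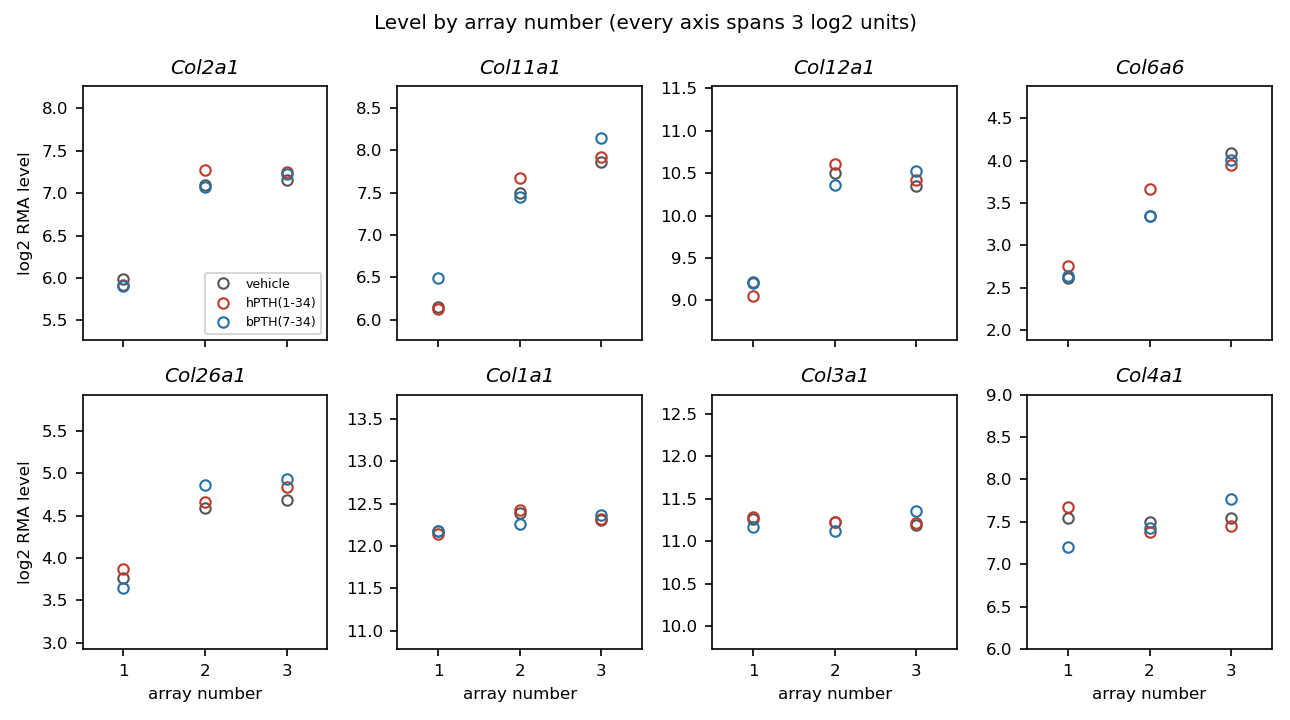
Log2 level against the replicate number of the array for the 5 collagen genes that passed the test of the number and for Col1a1, Col3a1 and Col4a1, which did not. Each point is 1 array, coloured by group, and every axis spans 3 log2 units. The points of number 1 lie lowest in the first 5 panels and, by less, in that of Col1a1, and the groups lie together within a number.

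Of the marker genes of cell types, 2 of 8 osteoblast, 2 of 8 cartilage and 1 of 5 tendon and fibroblast markers passed the test of the number too, which 0.213% of all clusters passed. The summed level of 8 cartilage cell markers other than collagens was 7.92 to 8.09 on the arrays numbered 1, 8.52 to 8.74 on those numbered 2 and 8.76 to 9.08 on those numbered 3 (log2 of the sum). Such a sum weighs high levels most. The medians of this list were 0.24 and 0.13 for numbers 2 and 3 against number 1, with 5 and 7 of 8 differences positive. Of these 8, Cnmd (1.53 and 1.40 above number 1, adjusted p = 0.030) and Comp (0.81 and 1.28, adjusted p = 0.041) passed, while Sox9, the regulator of cartilage fate, and the cartilage proteoglycan Acan did not (adjusted p = 0.871 and 0.712), and Matn1 was under the background limit. Of 8 osteoblast markers, Phex (0.98 and 1.79, adjusted p = 0.0046) and Ibsp (1.93 and 1.23, adjusted p = 0.047) passed, but the medians of the list were 0.10 and 0.09, and the summed levels of its 7 members other than Col1a1 overlapped, at 6.44 to 6.98, 6.86 to 7.48 and 6.69 to 7.18 for numbers 1, 2 and 3. Of 5 tendon and fibroblast markers, whose sum was 10.85 to 11.13 for number 1 and 11.21 to 11.40 for number 3, Tnmd passed (0.55 and 0.86, adjusted p = 0.038). The medians of that list were 0.03 and 0.12. Except Phex, which fell short of the threshold only without vehicle array 1, each of the other 4 calls was lost on leaving out at least 8 of the 9 arrays in turn. Of the 5 endothelial, 5 macrophage and osteoclast, 5 muscle and 4 adipocyte markers 0 passed. In that order 1, 2, 2 and 3 had an unadjusted limma p under 0.05, against 10.1% of all clusters. The adipocyte and macrophage lists had medians in the opposite direction, -0.79 and -0.34 for adipocyte and -0.50 and -0.77 for macrophage and osteoclast markers, for numbers 2 and 3 against number 1. The adipocyte sum was 8.03 to 8.90 for number 1, 7.47 to 7.96 for number 2 and 7.56 to 8.57 for number 3. The part of cell make-up in the collagen differences was not tested, and in such cultures fewer cells of a type and less RNA per cell cannot be told apart.

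Of the 7 osteoblast markers measured other than Col1a1, 4 lay above the background limit. Col1a1 was high on every array, Alpl had a mean of 5.82, Pth1r, the hormone's receptor, a mean of 4.67, the late osteoblast gene Ibsp a mean of 3.69 and the osteocyte gene Phex a mean of 3.27, while the late osteoblast and osteocyte genes Bglap (mean 1.39) and Dmp1 (1.27) and the regulator Sp7 (1.67) had means over the 9 arrays under the background limit. Runx2 and Spp1 were not measured by a single-symbol cluster. With hPTH(1-34), 0 of 8 osteoblast, 0 of 8 cartilage, 0 of 5 endothelial, 0 of 5 macrophage and osteoclast, 0 of 5 muscle and 0 of 4 adipocyte markers passed, and 1 of 5 tendon and fibroblast markers, Scx (-0.66, adjusted p = 0.038, lost in 9 of 19 alternatives), was lower. Of all clusters 0.451% passed, and 0.140% passed as lower. The osteoblast marker sum was 6.98 to 7.48 with hPTH(1-34), above the 6.44 to 6.95 with vehicle and the 6.51 to 6.86 with bPTH(7-34). This sum weighs high levels most, and Alpl, with the highest mean of the 7, was at 0.97 (limma adjusted p = 0.060). Of the 8 markers with Col1a1, 4 differences from vehicle were positive, 3 negative and 1 zero, with a median of 0.04 and a lowest of -0.35. Against bPTH(7-34), 1 was higher and 2 lower at an unadjusted limma p under 0.05, where 9.52% of all clusters passed. All 4 adipocyte markers had positive differences with hPTH(1-34), 2 of them at an unadjusted limma p under 0.05, against 9.31% of all clusters. With bPTH(7-34), 3 of the 4 were positive and 0 reached that p. Their sum was 7.96 to 8.90 with hPTH(1-34), 7.47 to 8.03 with vehicle and 7.72 to 8.40 with bPTH(7-34), which overlap. Array medians were 1.67 to 1.76, and correlations between arrays of a group were 0.986 to 0.992 and between groups 0.984 to 0.993.

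Collagen chains need a further set of proteins after transcription, and these were read from lists of genes. Of 19 genes for chain folding and hydroxylation, 0 passed with hPTH(1-34). Plod2, which hydroxylates the lysines used in cross-links, read 7.53, 7.48 and 7.76 with vehicle, 7.86, 8.33 and 8.17 with hPTH(1-34), and 7.58, 7.66 and 7.76 with bPTH(7-34). All hPTH(1-34) arrays lay above all others, but the difference of 0.53 (0.23 to 0.83) did not pass (limma adjusted p = 0.195). Tmem38b, an ion channel of the endoplasmic reticulum, and Colgalt1, which adds galactose to hydroxylysine, gave -0.20 and 0.11. Serpinh1, the collagen chaperone HSP47, gave 0.06 (-0.13 to 0.25).

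Of 11 genes for propeptide cleavage and cross-linking, 0 passed. Adamts3, a protease that removes amino-terminal propeptides, read 3.79, 3.70 and 3.55 with vehicle, 4.02, 5.16 and 4.74 with hPTH(1-34), and 3.66, 3.32 and 3.36 with bPTH(7-34). The hPTH(1-34) arrays lay above all others and apart from each other, with a difference of 0.96 (0.40 to 1.52; adjusted p = 0.201). Without hPTH(1-34) array 1 it was 1.27 (adjusted p = 0.012), and against bPTH(7-34) it passed in 3 alternatives, at adjusted p = 0.0074 without that array, 0.041 with array weights and 0.048 with a level minimum of 3. Tll1, a carboxy-terminal propeptidase of the tolloid family, gave 0.31 (adjusted p = 0.420), and Pcolce2, an enhancer of that cleavage, gave 0.39. Lox, the enzyme that cross-links fibrils, gave -0.05 (-0.33 to 0.23).

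Of 10 matrix proteins that bind fibrils, 1 was lower with hPTH(1-34), where 0.140% of all clusters were lower (0.132% against bPTH(7-34)). This was Thbs1, thrombospondin 1, which read 10.97, 11.25 and 11.02 with vehicle, 10.38, 10.28 and 10.32 with hPTH(1-34), and 10.97, 11.16 and 11.28 with bPTH(7-34). Every hPTH(1-34) array lay below every other array. The fall was 0.75 ± 0.11 (SE) on the log2 scale, 1.69-fold (limma adjusted p = 0.034), and the level was 0.81 below that with bPTH(7-34) (adjusted p = 0.024), while bPTH(7-34) itself gave 0.06 (-0.20 to 0.31). The adjusted p against vehicle rose to 0.055, 0.150 and 0.131 without vehicle array 1, 2 or 3, to 0.159 and 0.153 without hPTH(1-34) array 2 or 3, and to 0.071 without bPTH(7-34) array 2, with changes of -0.81 to -0.67. It was 0.098 with all clusters and 0.099 with 6 arrays only. Against bPTH(7-34) the call was lost in 7 of 20 alternatives, at adjusted p = 0.083 with all clusters, 0.101 with 6 arrays only, 0.054 without vehicle array 3, 0.120 and 0.114 without hPTH(1-34) array 2 or 3, and 0.095 and 0.112 without bPTH(7-34) array 2 or 3. Lum and Thbs2 gave -0.15 and -0.17 and did not pass, and fibronectin (Fn1) gave 0.01.

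Of 9 collagen receptors, 0 passed. Ddr1, a tyrosine kinase that fibrillar collagen activates, read 6.19, 5.82 and 6.00 with vehicle, 5.43, 5.22 and 4.61 with hPTH(1-34), and 6.07, 6.09 and 5.89 with bPTH(7-34). All hPTH(1-34) arrays were the lowest, and the difference of -0.92 (-1.36 to -0.47) had an adjusted p of 0.108. It passed in 2 of 20 alternatives, with a level minimum of 5 (adjusted p = 0.040) and without hPTH(1-34) array 1 (-1.09, adjusted p = 0.041), and in the same 2 against bPTH(7-34) (adjusted p = 0.033 and 0.039), while the mean of all its clusters gave -0.39. Gp6, the platelet receptor, lay under the background limit in each group. Itga2, the collagen-binding integrin chain, gave -0.63 (-1.94 to 0.69). It was the 1 of 9 receptors that passed the test of the array number, which 0.213% of all clusters passed. Numbers 2 and 3 lay 1.22 and 1.65 above number 1 (limma adjusted p = 0.024), a call lost on leaving out 8 of the 9 arrays in turn. Of 10 genes of collagen breakdown, 0 passed, and the 3 with the smallest p were Mmp9 (-0.26), Mmp13 (-0.13), the collagenase of bone, and the inhibitor Timp1 (0.15).

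**Figure D4:**
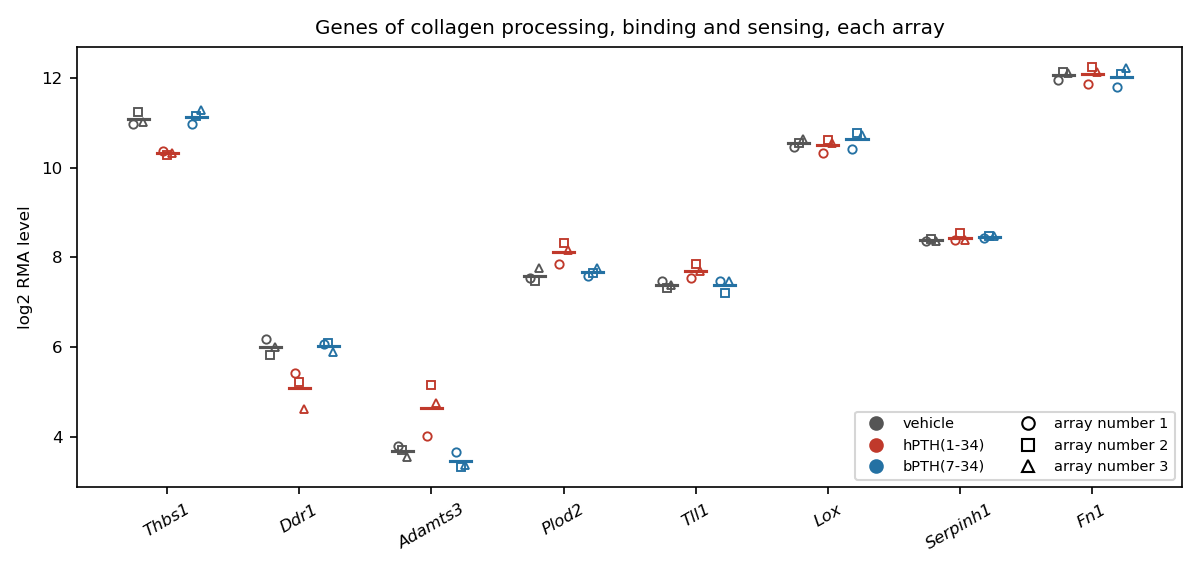
Log2 level on each array of 8 genes of collagen processing, binding and sensing, by group (colour) and replicate number (symbol), with bars at group means. The hPTH(1-34) arrays of Thbs1 lie between 10.28 and 10.38, below all others, and those of Ddr1 also lie lowest without passing the test; Lox, Serpinh1 and Fn1 overlap between groups.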

How the data were processed

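Total RNA of the 9 samples (100 ng each) was hybridised to 1 array each. Per the labels and the submitters' processing notes, the authors made the deposited log2 values with Affymetrix Expression Console and RMA, a method that corrects background, normalizes by quantiles and summarizes probes; the genome build is not given in the sources used here. The table held 41345 clusters with 2 decimals, of which 23521 had 1 symbol in the platform annotation, 1814 several and 16010 none. Groups came from the sample titles.

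All single-symbol clusters entered 1 fit of 9 arrays with the group as the only term (limma 3.58.1, lmFit and eBayes, in R 4.3.3), with two-sided p-values adjusted by Benjamini-Hochberg over the 23521 clusters and called under 0.05. No filter on level was used. The fit had 6 residual and 3.20 prior degrees of freedom, and 3 arrays a group set the precision. A second fit added the replicate number. The script was tested on simulated data. Promoter motifs were read from a RefSeq table.

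Values are given for Col1a1, the 10 members with the highest mean, members with an unadjusted p under 0.05, the largest estimate each way and, from each list of the collagen pathway, genes that passed and the 3 of lowest p for hPTH(1-34) and vehicle. The other genes were chosen after their values were seen. Plod3, Fkbp10, Adamts2, Loxl2 and Itga10 of the lists had no single-symbol cluster. The members and lists were chosen with earlier results of these data known. Alternatives were level filters, other cluster sets, quantile normalization, a shift to one median, trend and robust settings, array weights, each array left out, 6 arrays only and a replicate block.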

Additional observations from a re-analysis of the deposited data

How the results depend on the processing

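In none of 20 alternatives did a collagen gene pass for a treatment, and the lowest adjusted p was 0.281. The median differences moved by less than the spread between replicates in all 20, with leave-one-out ranges of -0.05 to 0.09 (hPTH(1-34)), -0.07 to 0.13 (bPTH(7-34)) and -0.10 to 0.03 (between peptides). The counts at an unadjusted p, 1, 0 and 1, became 0, 0 and 0 with level minimums of 3 or 5, with all 41345 clusters and with 6 arrays only, 0, 0 and 1 with array weights, and 1, 0 and 0 with trend and robust settings or with arrays shifted to one median. Leaving out 1 array gave 0 to 3, 0 to 1 and 0 to 1. Of 2526 uncalled member values, 213 differed in sign from the main estimate, the largest by size being 0.48. The cause of these moves was not tested.

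The replicate number as a block gave 2, 1 and 3 genes at an unadjusted p and 0 adjusted. With hPTH(1-34) these were Col15a1 (0.38, 95% interval 0.09 to 0.66, limma adjusted p = 0.302) and Col6a4 (limma adjusted p = 0.400). Deviations of same-numbered arrays from their group means correlated at 0.06 to 0.36 over all clusters, with 6 of 9 pairs over 0.1, so by the rule that every pair exceed 0.1 the number was not taken to pair the samples. Of 18 different-numbered pairs, 1 was over 0.1. Over clusters with a mean of at least 5, same-numbered pairs correlated at 0.07 to 0.60 and different-numbered pairs at -0.58 to 0.24. Over the collagen genes the 9 same-numbered pairs correlated at 0.45 to 0.87 and the 18 different-numbered pairs at -0.81 to 0.56. The block made the standard error smaller for 35 of 44 genes, for Col12a1 from 0.51 to 0.11 (95% interval -0.26 to 0.26 with hPTH(1-34)). For Col11a1 it went from 0.60 to 0.12 (-0.22 to 0.36), for Col2a1 from 0.48 to 0.09 (-0.15 to 0.29) and for Col6a6 from 0.46 to 0.11 (-0.15 to 0.37). For Col26a1 it went from 0.40 to 0.11 (-0.15 to 0.38) and for Col9a3 from 0.38 to 0.18 (-0.82 to 0.01). These block intervals lay within 2-fold, which those of the same genes without the block did not.

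The number test itself, with 5 collagen genes called, gave 8 with a level minimum of 3 or 5 or with trend and robust settings, 1 with all clusters, 5 or 6 in the other settings with 9 arrays and 0 to 4 on leaving out 1 array. Over all clusters, the 106 calls with hPTH(1-34) became 186 and 182 with minimums of 3 and 5, 166 with weights, 16 with all clusters, 0 with 6 arrays and 0 to 259 on leaving out 1 array; the 109 between peptides became 215, 211, 204, 3, 0 and 2 to 262. With 0 calls for bPTH(7-34) by limma, 780 clusters had an unadjusted p under 0.05.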
